A study of Prunus armeniaca and Prunus mume with 8 samples.

Results

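Fruit RNA of 2 apricot (Prunus armeniaca) cultivars, Manao and Zhenkui, was compared on 2 Manao arrays and 2 Zhenkui arrays, 4 of the 8 arrays of the series. They were chosen by the cultivar named in the labels. The other 4 arrays held fruit RNA of Japanese apricot (Prunus mume), cultivars Ruantiaohongmei and Xiyeqing with 2 arrays each, and served as reference levels and as part of the estimate of spread between arrays. Neither apricot cultivar carried a treatment, and no age of trees was given. Per the labels, fruits were taken at stages 1 to 8, from 3 to 13 weeks after full bloom, and total RNA was labelled with Cy3 for one-colour hybridisation. Neither the stages pooled for an array nor the trees behind the paired arrays are stated, and the p-values may therefore reflect no more than technical spread between these samples.

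The fruit of apricot and its relatives is a drupe: a fleshy layer around a hardened stone that holds the kernel. It grows in a first burst of cell division, pauses while the stone lignifies, and then swells and ripens. Ripening is climacteric, driven by a rise of ethylene that is made from methionine through ACC synthase and ACC oxidase, and it brings wall loosening, loss of malate and citrate, gain of sugars and colour, and changes in defence proteins. In fruit pooled over stages, a level reflects both how strongly a gene is used at a stage and how much of that stage is in the pool. Fewer cells of a type and less RNA per cell cannot be told apart in such samples.

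All 4 apricot arrays were of similar quality. Between 8499 and 8943 of 10384 probes were well above background on an apricot array, the lowest number on Zhenkui replicate 2, and no spot was saturated. The median spot was 7.96 and 8.15 times as bright as its local background on the Manao arrays, and 7.06 and 6.49 times on the Zhenkui arrays. Across the 9121 tested probes, the 2 Manao arrays correlated at r = 0.992, the 2 Zhenkui arrays at 0.981 and Manao with Zhenkui arrays at 0.976 to 0.987. These correlations are across probes, which share arrays and are no replicates. The Zhenkui arrays lay further apart than the Manao arrays: 653 probes differed at least 2-fold between the Zhenkui arrays and 240 between the Manao arrays. Manao stood in row 1 of the slide and Zhenkui in row 2, in separate columns, so slide position and cultivar cannot be told apart. Ruantiaohongmei stood in row 1 and Xiyeqing in row 2, so their difference, which shares no array with the apricot comparison, has the same rows.

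Levels are given as the log2 signal relative to the 75th percentile of the array, so a level of 0 equals that percentile. Levels of different probes are not comparable. The match of each probe to apricot and to Japanese apricot RNA was not tested. Comparisons between the species are therefore of signal only. A difference is the Manao mean minus the Zhenkui mean on the log2 scale, positive where Manao is higher, with its standard error (SE) from the fit across all probes. Arrays are called apart where both arrays of one cultivar lie above both arrays of the other. Genes named from sequences of peach, plum, cherry or almond are given under those descriptions, and probes of near-identical sequences may read the same transcript.

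Markers of fruit flesh, kernel and green tissue were read first. Probes for expansins, the wall-loosening proteins of growing and ripening flesh, were above background on all 4 apricot arrays in 10 of 10 cases, as were 91% of all tested probes, and ACC oxidase AF026793.1 stood at 5.14 and 5.11 in Manao and at 4.32 and 4.37 in Zhenkui. Kernel markers were near background: oleosin AY962832.1, an oil body protein of seeds, stood between -6.40 and -5.34 on the apricot arrays. The almond seed storage gene pru2 (X78120.1) stood at -5.40 and -4.99 in Manao and was not above background in Zhenkui, at least 1.44-fold lower, with a difference of only 0.16 under normexp, a model-based background correction. The leaf and green tissue marker Lhcb-Pp2 (AF039598.1), a chlorophyll-binding protein, stood at 6.41 and 6.52 in Manao and at 7.27 and 7.75 in Zhenkui.

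No probe passed the test between Manao and Zhenkui. With limma and Benjamini-Hochberg adjustment, 0 of 9121 probes (0%) had an adjusted p under 0.05, and the smallest adjusted p was 0.120. At an unadjusted p under 0.05 the same test counted 1039 probes (11.4%), 508 higher in Manao (5.57%) and 531 lower (5.82%). Apart from the most extreme 5% on each side, differences lay between -0.68 and 0.89 around a median of -0.03, with a median SE of 0.28. The gene values that follow are therefore a description of these 4 arrays, in which no single gene is shown to differ between the cultivars.

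**Figure D1:**
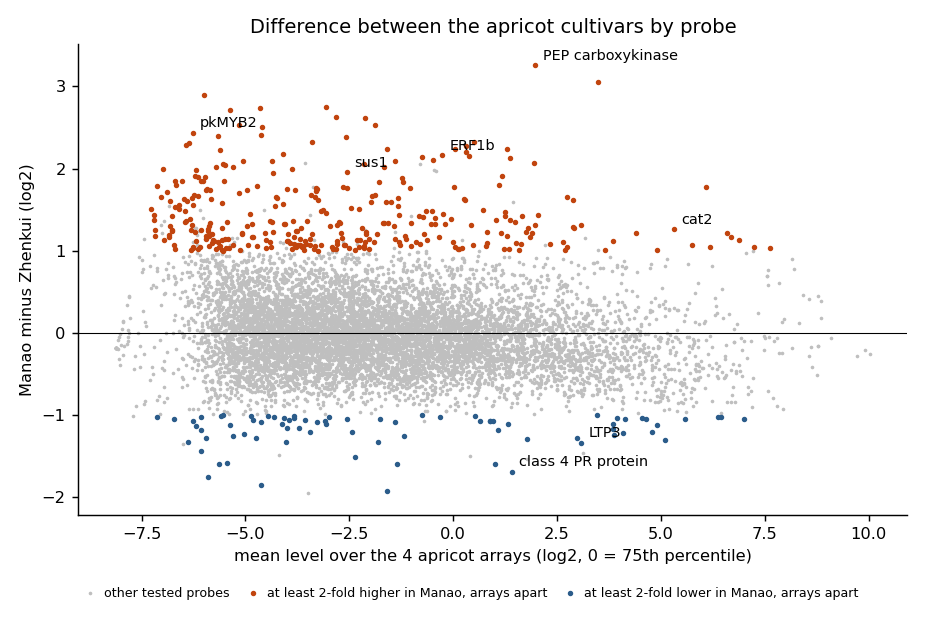
Each point is 1 of the 9121 tested probes, with its mean log2 level over the 4 apricot arrays on the x axis and the Manao minus Zhenkui difference (log2) on the y axis. Coloured points differ at least 2-fold with arrays apart, 325 toward Manao and 77 toward Zhenkui, and the points beyond 2 on the y axis all lie above 0.

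Large differences lay mostly toward Manao. Of the tested probes, 325 (3.56%) stood at least 2-fold higher in Manao with arrays apart, and 77 (0.844%) stood at least 2-fold lower, 4.41% together. At 4-fold or more the counts were 41 (0.45%) and 0 (0%). With the probes split by mean level into 4 bands of equal size, the excess toward Manao was present in each: 5.79% against 1.23% of the dimmest band, and 2.76% against 1.23% of the brightest. Small differences leaned the other way, since arrays were apart at any size for 2068 probes toward Manao (22.7%) and for 2694 toward Zhenkui (29.5%), 52.2% together. The direction of small differences depended on the scaling. With the 75th percentile of probes above background on all 8 arrays, the median difference was 0.01. Limma then counted 600 higher and 374 lower at an unadjusted p under 0.05. With the array median these were -0.09, 407 and 712. In 75 of the 325 probes higher in Manao the Zhenkui signal was not above background on either array, and in 10 of the 77 the Manao signal was not. The excess toward Manao at 2-fold or more held in every processing setting tried. With normexp it was 103 probes against 25, and on the authors' deposited log2 values 180 against 34. The authors' deposited table of this comparison lists 208 probes, 173 with a positive and 35 with a negative log2 ratio of Manao over Zhenkui, of which 207 were tested here and 207 had the same sign.

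The probes higher in Manao tended to be higher still in Japanese apricot. The mean of the 4 Japanese apricot arrays lay above both apricot cultivars for 219 of the 325 probes (67.4%), against 3280 of all 9121 probes (36%). It lay below both cultivars for 31 of the 325 (9.54%), against 47.5% of all probes. For the 77 probes lower in Manao, the Japanese apricot mean lay below both cultivars for 44 (57.1%) and above both for 12 (15.6%). The share above both cultivars among the probes higher in Manao ranged from 57.6% to 74.2% over the processing settings and left-out arrays, and was 69.3% among the 212 probes that were above background on all 4 apricot arrays. In the Japanese apricot pair the difference between rows 1 and 2 had the same sign as the apricot difference for 229 of the 325 probes (70.5%) and 47 of the 77 (61%), against 55.9% of all probes. Its median over the 325 probes was 0.23, beside 1.30 for the apricot difference. The part of slide position in these counts was not tested beyond these values, and that of probe match to each species was not tested.

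**Figure D2:**
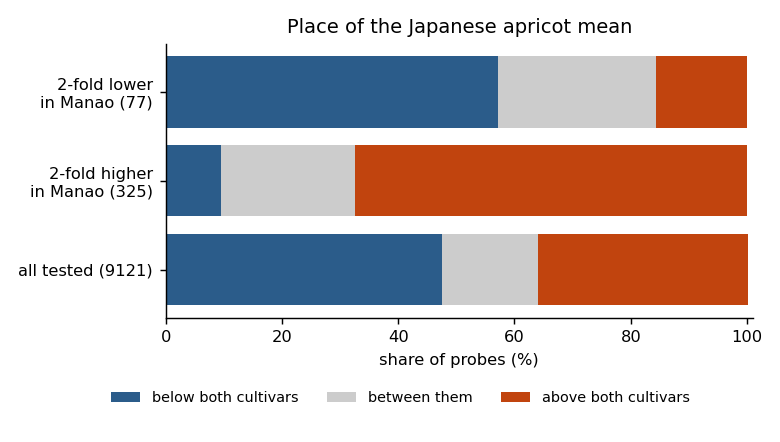
Bars give the share (%) of probes whose mean over the 4 Japanese apricot arrays lies below both apricot cultivars, between them or above both, for all tested probes and for those at least 2-fold higher or lower in Manao with arrays apart. The probes higher in Manao have 67.4% above both cultivars, against 36% of all tested probes.

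Descriptions naming a protein exist for 228 of the tested probes. They come from the authors' 2-fold lists, which were chosen on these samples, so that neither their number nor their direction is independent evidence. Of the 228, 29 (12.7%) stood at least 2-fold higher in Manao with arrays apart and 15 (6.58%) stood lower. The shares of all tested probes were 3.56% and 0.844%. These 44 and the gene groups below are described by what they encode. Since no member of any group passed the adjusted test, each group is given by its counts and its median, beside the median of -0.03 over all probes.

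**Figure D3:**
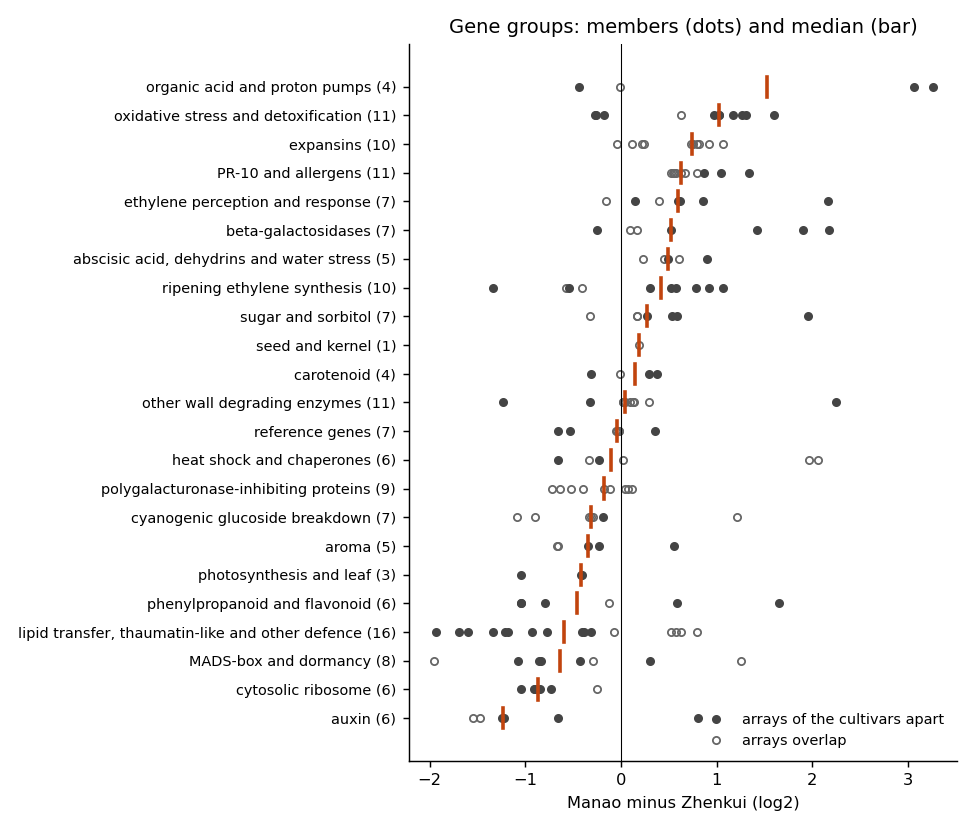
Each dot is the Manao minus Zhenkui difference (log2) of 1 tested member of a gene group, with the number of members in parentheses, filled where the arrays of the cultivars are apart and open where they overlap. The bar is the median of the group, from 1.52 for organic acid enzymes to -1.23 for auxin-related genes. The organic acid group holds 2 phosphoenolpyruvate carboxykinase probes (3.26 and 3.06) and 2 other enzymes (-0.01 and -0.44). No member lies near its median, and it holds no proton pump probe although its label names pumps.

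The widest gap among named genes was in phosphoenolpyruvate carboxykinase (PEPCK), which turns oxaloacetate made from malate into phosphoenolpyruvate and so feeds the conversion of organic acids to sugars in ripening fruit. The PEPCK probe AY962831.1 stood at 3.28 and 3.94 in Manao and at 0.44 and 0.27 in Zhenkui. A second probe, AY962819.1, stood at 4.72 and 5.32 in Manao and at 2.04 and 1.88 in Zhenkui. On both probes the Zhenkui arrays lay close together. The Manao arrays lay further from each other, though by less than the gap between the cultivars. The differences were 3.26 ± 1.45 (SE, 9.56-fold, adjusted p = 0.45 by limma) and 3.06 ± 1.45 (8.34-fold, adjusted p = 0.474). These errors are wide because the fit pools the spread of all 4 cultivars, and the Xiyeqing arrays stood at -0.27 and 4.92 for AY962831.1. In a fit of the 4 apricot arrays alone both adjusted p-values were 0.181, and over all settings they ranged from 0.0456 to 0.986. The other enzymes of the organic acid group did not share this gap: the malate dehydrogenase probe AF367442.1 differed by -0.44 and the isocitrate dehydrogenase probe AF367443.1 by -0.01. For pumps of the plasma membrane that export protons, 2 probes chosen for a 2-fold gap with arrays apart stood higher in Manao. PPA2 (AJ271438.1) stood at -3.10 and -0.41 in Manao, against -3.49 and -3.56 in Zhenkui. For PPA2 most of the difference of 1.77 came from Manao replicate 2, and with normexp it was 1.09. PPA4 (AJ271441.1) differed by 1.75 ± 1.34, or 0.45 with normexp and 1.12 on the deposited log2 values.

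Sugar genes were higher in Manao in 6 of 7 cases, with a median difference of 0.27. The row 1 minus row 2 difference of the Japanese apricot pair had a median of 0.38 over them. Sucrose synthase sus1 (AF367450.1), which splits sucrose for use in growing tissue, stood at -1.36 and -1.79 in Manao and at -3.41 and -3.65 in Zhenkui. Its gap of 1.96 ± 0.42 (3.88-fold, adjusted p = 0.369 by limma) was wide against the distance between arrays of either cultivar, and was 1.1 with normexp. The Japanese apricot arrays, at -2.01 to -0.69, lay near or above Manao, so that Zhenkui stood alone at the low end. The sorbitol transporter SOT1 (AY924379.1) differed by 0.59 and the hexose transporter Stp1 (AF367454.1) by 0.54, both with arrays apart. Arrays were apart in that direction for 22.7% of all probes. The sorbitol-6-phosphate dehydrogenase probe FJ645737.1, of the enzyme that makes sorbitol, differed by -0.33 with overlapping arrays and turned to the other sign without Zhenkui replicate 2.

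Of the ethylene genes, those for the last step of synthesis and for part of the response stood higher in Manao. ACC oxidase aco1 (AJ890086.1) stood at 0.92 and 1.09 in Manao and at -0.21 and 0.08 in Zhenkui, a difference of 1.07 ± 0.75 (adjusted p = 0.588 by limma). The probes AF026793.1 and AF319166.1 of the same enzyme differed by 0.78 and 0.93, with arrays apart, as for 22.7% of all probes. Probes for ACC synthase, the step before it, were dim and did not stand higher in Manao: AF467782.1 differed by -0.58 and EU034653.1 by -0.54, both on arrays above background. AF184077.1 was above background on 1 Manao array and Z23118.1 on none, and on only 1 of the Zhenkui arrays. Ethylene synthesis as a group thus held 6 probes higher and 4 lower in Manao, with a median of 0.42. In the Japanese apricot pair, the row 1 minus row 2 difference had a median of 1.54 over this group. For aco1 it was 1.44. The part of slide position was not tested.

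In ethylene perception and response, 6 of 7 probes stood higher in Manao, 2 of them at an unadjusted p under 0.05 (5.57% of all probes in that direction), and the median was 0.60. The transcription factor ERF1b (FJ026008.1) stood at 0.24 and 1.40 in Manao and at -1.67 and -1.02 in Zhenkui. Its arrays were apart by a wide margin, with a difference of 2.17 ± 0.65 (4.49-fold, adjusted p = 0.403 by limma). Its relative ERF1a (FJ026009.1) differed by -0.16 with overlapping arrays. EIN2, a membrane protein on which the ethylene signal depends, was read by 3 probes. They differed by 0.86 (DQ364145.1), 0.60 (DQ845462.1) and 0.62 (GU120631.1). All had arrays apart, as did 22.7% of all probes in that direction. The receptor ERS1 (AY061640.1) was nearly level, at 0.14. Over this group the row 1 minus row 2 difference of the Japanese apricot pair had a median of -0.39.

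**Figure D4:**
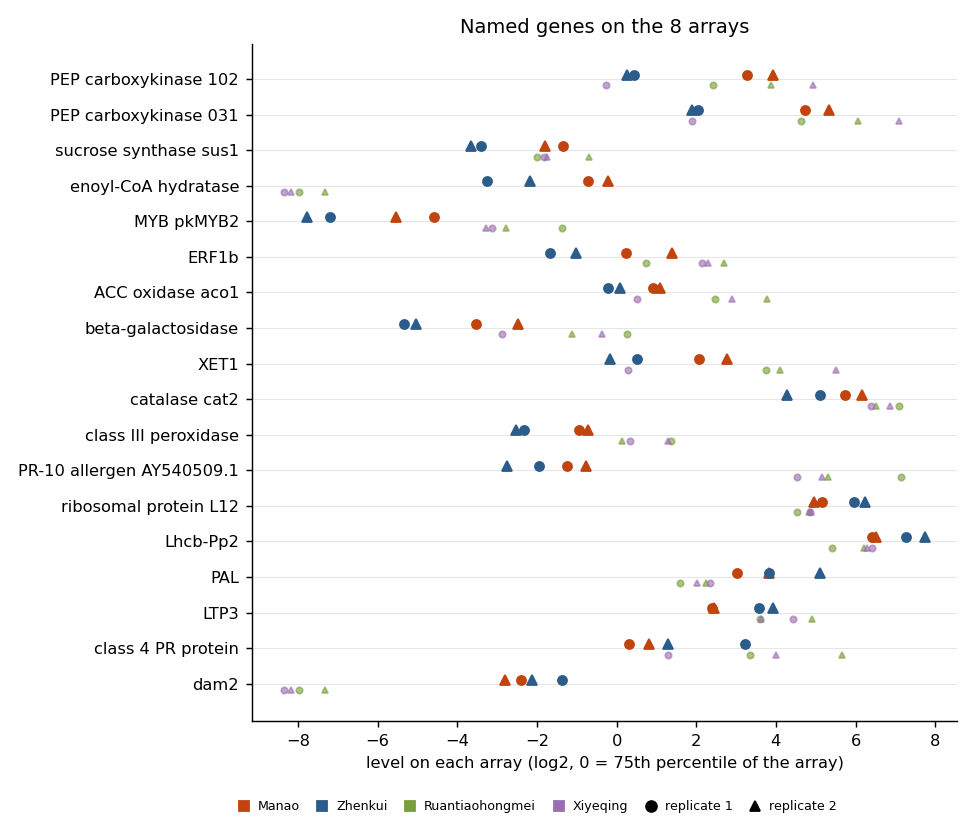
Each row is 1 probe and each symbol its log2 level on 1 array (0 is the 75th percentile of the array), with colour for the cultivar and shape for the replicate. Large symbols are the apricot arrays and small symbols the Japanese apricot arrays, and levels are to be compared within a row only. In the upper rows, down to the PR-10 allergen, both Manao symbols lie above both Zhenkui symbols, and in the lower rows, from ribosomal protein L12, they lie below.

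Enzymes that act on the cell wall fell into separate sets. Of 7 beta-galactosidases, which trim galactose side chains from wall polymers as fruit softens, 4 stood higher in Manao with arrays apart and 1 lower, beside 22.7% and 29.5% of all probes. AY987025.1 stood at -3.52 and -2.49 in Manao and at -5.34 and -5.03 in Zhenkui, a difference of 2.18 ± 0.83 (4.52-fold, adjusted p = 0.427 by limma) that was 0.61 with normexp. EU370208.1 differed by 1.91 ± 0.88 and EF568777.1 by 1.42 ± 0.84, and both stood higher on the Japanese apricot arrays than the Zhenkui arrays. Of the others, AF184080.1 differed by 0.17 with overlapping arrays and AY874412.1 by -0.25 with arrays apart, and these stood higher in apricot than in Japanese apricot. The median of the group was 0.53, and it was 0.95 for the row 1 minus row 2 difference of the Japanese apricot pair. Xyloglucan endotransglycosylase XET1 (AF534870.1), which cuts and rejoins wall xyloglucan, stood at 2.06 and 2.77 in Manao and at 0.52 and -0.17 in Zhenkui, a difference of 2.24 ± 1.43 (adjusted p = 0.558). The wall protein extensin EF640660.1 differed by 1.32 ± 0.52.

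Other wall enzymes differed little. The 3 arabinofuranosidase probes differed by 0.02 to 0.03, with SE of 0.32 to 0.36, and the pectin esterase EF640684.1 by 0.29 with overlapping arrays. Endo-polygalacturonase DQ340809.1, which cuts pectin in melting flesh, stood at -6.22 and -5.07 in Manao and at -4.48 and -4.34 in Zhenkui, and was above background on only 1 of the Manao arrays. Its difference of -1.24 ± 1.79 was -0.57 with normexp. The median of the 11 tested probes for other wall enzymes was 0.04 and changed sign with the scaling.

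Expansins could not be placed between the cultivars, because the Zhenkui arrays disagreed. Expansin Exp2 (AF038815.1) stood at 5.96 and 5.06 in Manao and at 6.24 and 3.15 in Zhenkui. EXP1 (AF350936.1) stood at 4.74 and 3.73 in Manao and at 4.86 and 1.76 in Zhenkui. Zhenkui replicate 1 thus lay above both Manao arrays and Zhenkui replicate 2 below them. The median of the 10 expansins was 0.74, 1.86 without Zhenkui replicate 1 and -0.41 without Zhenkui replicate 2. The polygalacturonase-inhibiting proteins, wall proteins that block fungal pectinases, split the same arrays: AY903223.1 stood at -2.53 and -5.26 in Zhenkui, around -4.25 and -3.32 in Manao. Their median of -0.17 became 0.85 without Zhenkui replicate 1 and -1.39 without Zhenkui replicate 2.

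**Figure D5:**
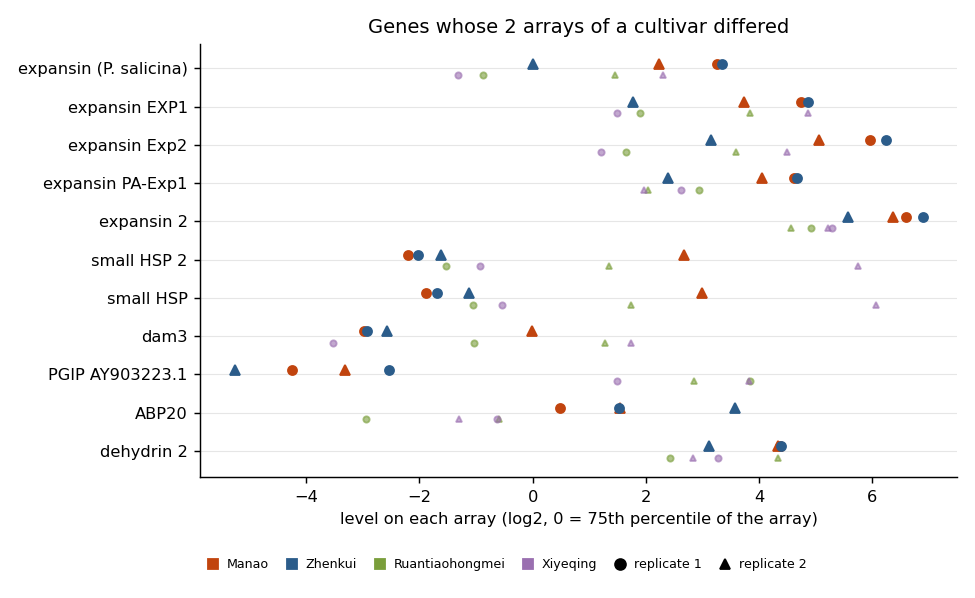
Log2 levels on each array (0 is the 75th percentile) for genes whose 2 arrays of an apricot cultivar lay far apart, with colours and shapes for cultivar and replicate. The expansin rows have the Manao arrays between or beside the Zhenkui arrays, and the rows of small heat shock proteins and dam3 have Manao replicate 2 far above the other apricot arrays.

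Manao had its own divided genes. The small heat shock protein AY500559.1, a chaperone made under heat and other stress, stood at -1.88 and 3.00 in Manao and at -1.69 and -1.13 in Zhenkui. GQ850382.1 showed the same, at -2.20 and 2.68 in Manao, and both stood highest of all on Xiyeqing replicate 2, at 6.06 and 5.75. Without Manao replicate 2 both differences turned to the other sign. The larger chaperones HSP60 (AF489695.1, -0.65), HSP90 (EF640665.1, -0.34) and the dnaK type (EF640669.1, -0.23) had no such split.

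Genes that deal with reactive oxygen stood higher in Manao. In the group for oxidative stress and detoxification, 8 of 11 probes were higher and 6 of them had an unadjusted p under 0.05, against 5.57% of all probes in that direction. The median difference was positive in every setting, between 0.61 and 1.38, but 8 of the 11 were in the authors' list for these cultivars, which was chosen for this difference. Catalase, which breaks down hydrogen peroxide, was read by 6 probes that formed separate sets. The cat2 probe AJ496419.1 stood at 5.74 and 6.17 in Manao and at 5.11 and 4.28 in Zhenkui, a difference of 1.26 ± 0.36 (2.40-fold, adjusted p = 0.391 by limma). The probes AY162277.1 (1.31 ± 0.35), AY962826.1 (1.03 ± 0.36) and EF165590.1 (0.97 ± 0.33) had the same order of arrays, with Zhenkui replicate 2 lowest. The cat1 probes of peach differed by -0.26 (AJ132444.1) and -0.18 (AJ496418.1). Among peroxidases, which use hydrogen peroxide in wall cross-linking and defence, EF640707.1 stood at -0.94 and -0.71 in Manao and at -2.31 and -2.53 in Zhenkui, a difference of 1.60 ± 0.46 (3.02-fold, adjusted p = 0.391). The secretory peroxidase AY962824.1 differed by 1.17 ± 0.42, and the metallothionein-like PAMT1 (AF028013.1) was apart by a narrow margin, with Manao replicate 2 far above the other 3 apricot arrays.

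Defence proteins were divided by family. The PR-10 proteins are the Bet v 1-type allergens of stone fruit, and all 11 of their probes were higher in Manao, with a median of 0.63, and 0 of them had an unadjusted p under 0.05. The cherry allergen probe AY540509.1 stood at -1.25 and -0.76 in Manao and at -1.95 and -2.74 in Zhenkui, a difference of 1.34 ± 0.60 (adjusted p = 0.45 by limma). It stood at 4.53 to 7.15 on the Japanese apricot arrays, far above both cultivars. The apricot allergen homolog U93165.1 differed by 1.04 ± 0.45, with arrays apart. Most of the other PR-10 probes overlapped, and without Manao replicate 2 the median of the group was -0.00.

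Lipid transfer proteins, small lipid-binding proteins of the fruit skin that are also allergens, stood lower in Manao. LTP3 (FJ652103.1) stood at 2.39 and 2.44 in Manao and at 3.58 and 3.94 in Zhenkui, a difference of -1.34 ± 0.46 (2.53-fold lower, adjusted p = 0.426 by limma). The almond lipid transfer protein III (X96716.1) and LTP2 (AY093699.2) differed by -1.22 and -1.18, while LTP1 (AY093700.1) and the almond protein I (X96714.1) differed by -0.38 and -0.31. All 5 had arrays apart, which held for 29.5% of all probes in that direction. Defensin DFN1 (AY078426.1), an antifungal peptide, stood at 7.57 and 7.38 in Manao and at 8.31 and 8.50 in Zhenkui. The class 4 pathogenesis-related protein AF362989.1 stood at 0.30 and 0.82 in Manao and at 3.22 and 1.30 in Zhenkui, and the class IV chitinase EF640689.1 at -2.48 and -2.65 against 0.32 and -1.58. In both, Zhenkui replicate 1 was by far the highest apricot array, and the difference of the chitinase had an SE of 2.61. The group, which also holds 4 of the PR-10 probes, had 4 probes higher and 12 lower in Manao and a median of -0.59.

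Phenylpropanoid genes stood mostly lower in Manao. Phenylalanine ammonia-lyase (PAL), which opens the path to lignin and flavonoids, stood at 3.60 and 4.43 in Manao and at 4.45 and 5.68 in Zhenkui on PAL1 (AF036948.1). The apricot PAL probe EF031063.1 differed by -1.04 ± 0.48 (adjusted p = 0.453 by limma). On both probes the arrays were only just apart, and Zhenkui replicate 2 made the gap. Chalcone synthase DQ856583.1, the first enzyme of flavonoid synthesis, stood at 3.05 and 3.55 in Manao and at 4.07 and 4.11 in Zhenkui, near the 3.67 and 3.62 of Xiyeqing. Ruantiaohongmei stood far below all of these, at -4.73 and -3.16. 2 probes of lignin enzymes stood higher in Manao with arrays apart, as did 22.7% of all probes. Caffeic acid O-methyltransferase (X83217.1) stood at 3.61 and 3.55 in Manao and at 2.09 and 1.76 in Zhenkui, a difference of 1.65 ± 0.85, and the cinnamoyl-CoA reductase probe AY012685.1 differed by 0.59. A second cinnamoyl-CoA reductase probe, AF298828.1, differed by -0.13. The 6 probes had a median of -0.46.

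Auxin-binding proteins of the germin-like type stood lower in Manao. ABP2 (EU310513.1) stood at 3.07 and 3.45 in Manao and at 4.17 and 4.84 in Zhenkui, a difference of -1.24 ± 0.92 (adjusted p = 0.611 by limma). ABP19 (GQ169610.1) differed by -1.22 ± 0.78, and ABP20 (U81162.1) by -1.54 with overlapping arrays. Of the 6 auxin probes only the auxin-repressed protein U93273.1 stood higher in Manao, at 6.48 and 6.79 against 5.94 and 5.72. The median was -1.23, and -0.53 without Zhenkui replicate 2, and 5 of the 6 were in the authors' list for these cultivars.

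Genes of the abscisic acid and dehydrin group were higher in Manao in 5 of 5 cases, with a median of 0.49. The ripening-related ASR-like protein AF317062.1 stood at 8.65 and 8.57 in Manao and at 8.02 and 7.4 in Zhenkui, a difference of 0.90 ± 0.38 (adjusted p = 0.437 by limma). Dehydrin 2 (AY465376.1) stood at 4.37 and 4.33 in Manao and at 4.39 and 3.11 in Zhenkui, so the arrays overlapped. Without Zhenkui replicate 2 the median of the group was -0.04.

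Dormancy-associated MADS-box genes (dam), which in peach mark the dormant state of buds, stood lower in Manao on 3 of 4 probes. The dam5 probe (DQ863251.1) stood at 0.24 and -0.02 in Manao and at 1.46 and 0.92 in Zhenkui, a difference of -1.08 ± 0.92. The probe for dam1 (DQ863253.2) differed by -0.86 and that for dam2 (DQ863255.1) by -0.84 ± 0.34, with arrays apart. The dam2 signal was not above background on any Japanese apricot array. Only dam3 (DQ863256.1), at -2.98 and -0.00 in Manao, had a positive difference, which rested on Manao replicate 2. The 8 MADS-box probes had a median of -0.64, and 6 of them were lower.

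Genes of protein synthesis stood lower in Manao. Ribosomal protein L12 (U93168.1) stood at 5.15 and 4.96 in Manao and at 5.96 and 6.24 in Zhenkui, a difference of -1.05 ± 0.22 (2.07-fold lower, adjusted p = 0.365 by limma). The acidic 60S proteins AY081851.1 and DQ836316.1 differed by -0.91 ± 0.23 and -0.89 ± 0.22, S4 (AF071891.1) by -0.85 and S8 (AF071889.1) by -0.73. All had arrays apart, as did 29.5% of all probes in that direction. The brightest member, L16 (EF640709.1), differed by only -0.25 ± 0.31 with overlapping arrays. Its difference turned to the other sign without Zhenkui replicate 2. Of the 6 ribosomal probes, 6 were lower in Manao and 5 had an unadjusted p under 0.05, against 5.82% of all probes in that direction. None of the 6 was in the authors' list for these cultivars. Their descriptions come from the authors' other 2-fold lists, which were also chosen on these samples, so the group is not independent evidence. The median was -0.87 and stayed between -1.03 and -0.72 in every setting and with every array left out. Their levels in Japanese apricot, at 4.52 to 4.89 for L12, lay near or below Manao. Among all tested probes, the brightest of the 4 level bands had a median difference of -0.15.

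Elongation factor 1 alpha (AY962821.1) and beta-tubulin (FJ157349.1), often used as reference genes, also stood lower in Manao, by -0.53 ± 0.25 and -0.66 ± 0.27. Actin probes were level, with differences of -0.05 to -0.02 and SE of 0.18 to 0.20, and alpha-tubulin X67162.1 differed by -0.04. The ubiquitin carrier protein AY962825.1 stood higher in Manao, by 0.35 with arrays apart. The chlorophyll-binding protein Lhcb-Pp2 (AF039598.1) differed by -1.05 ± 0.31 (adjusted p = 0.391 by limma), and the other 2 probes of the photosynthesis group by -0.42 and -0.41. Sequence tags from a library of green apricot fruit had a median difference of -0.17 over 196 probes, 75 higher and 121 lower in Manao, but 12 higher and 3 lower at 2-fold or more with arrays apart. Tags from partly ripe fruit had a median of -0.08 over 124 probes, with 57 higher and 67 lower, but 13 and 1 at 2-fold or more with arrays apart. These shares were 6.12% and 1.53% for green fruit and 10.5% and 0.806% for partly ripe fruit, beside 3.56% and 0.844% of all probes. The tags, too, were described only through the authors' 2-fold lists, which were chosen on these samples. The share of green fruit in the pools was not measured.

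The remaining groups, like most of those above, had members on both sides of 0. Of 4 carotenoid probes, phytoene synthase (AY822067.1) stood at 0.35 and 0.47 in Manao and at 0.36 and 0.46 in Zhenkui, and zeaxanthin epoxidase (AF071888.1) differed by 0.38. The lipoxygenase and alcohol dehydrogenase probes of the aroma group had a median of -0.34. Enzymes that release cyanide from prunasin and mandelonitrile had a median of -0.31, with mandelonitrile lyase Y08211.1 at 4.92 and 4.75 in Manao and at 5.07 and 4.97 in Zhenkui. The prunasin hydrolase probes of that group differed more, by -1.08 (AF411131.1) and -0.90 (AF411009.1) with overlapping arrays. The PH I probe (U50201.2) was above background on 1 Manao array and no Zhenkui array. In all 3 groups no probe had an unadjusted p under 0.05.

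A few transcription factors and enzymes outside these groups had wide gaps. The enoyl-CoA hydratase probe U93271.1, of an enzyme of fatty acid breakdown, stood at -0.73 and -0.21 in Manao and at -3.24 and -2.17 in Zhenkui, a difference of 2.24 ± 0.41 (4.72-fold, adjusted p = 0.296 by limma). It was not above background on any Japanese apricot array. A lower level there and a weaker match of the probe to Japanese apricot RNA cannot be told apart. The MYB factor pkMYB2 (FJ860135.1) stood at -4.59 and -5.52 in Manao and was not above background in Zhenkui, at least 1.59-fold lower (adjusted p = 0.360). With normexp its difference was only 0.046, so the size of the gap depended on that setting. It stood at -3.28 to -1.37 on the Japanese apricot arrays. The NAM-like protein AJ704829.1 (2.13 ± 1.55), the GAST-like gibberellin-regulated protein EF640687.1 (2.05 ± 1.53) and the homeobox leucine zipper protein HBLZP (AF139497.1, 2.02 ± 1.04) stood higher in Manao with arrays apart. A methyltransferase of apricot (U82011.1) stood at 1.58 and 2.36 in Manao and at 0.24 and 0.76 in Zhenkui, and the receptor-like kinase SERK3 (GQ169612.1) differed by 1.04 ± 0.29, or 0.28 with normexp. Normexp also narrowed the GAST-like EF640687.1 to 1.30.

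Some probes without a protein name also had wide gaps, all of them narrower with normexp. The smallest adjusted p, 0.120 by limma, belonged to actca_Cluster941, at -3.56 and -3.01 in Manao and not above background in Zhenkui, at least 5.33-fold lower (0.64 on the log2 scale with normexp). The Japanese apricot arrays stood at -0.71 to -0.02. Contig559 stood at -1.69 and -1.67 in Manao and at -4.87 and -3.99 in Zhenkui, a difference of 2.75 ± 0.79 (1.38 with normexp). CV047689.1 stood at -4.52 and -4.60 in Manao and was not above background in Zhenkui, at least 2.24-fold lower, but with normexp the difference was only 0.14. In the other direction, CB823353.1, a tag from ripe apricot fruit, stood at -5.62 and -5.47 in Manao and at -2.66 and -4.72 in Zhenkui, a difference of -1.85 (-0.96 with normexp).

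The Japanese apricot cultivars were compared in the same fit. Under the same fit, 51 probes (0.559%) were called between Ruantiaohongmei and Xiyeqing by limma with an adjusted p under 0.05, although their arrays were more widely spread than those of the apricot cultivars. A direct test of whether the Manao minus Zhenkui difference equals the Ruantiaohongmei minus Xiyeqing difference called 18 probes (0.197%).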

How the data were processed

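Each array file holds intensity values (Agilent processed signals), background-subtracted and detrended by the authors per the file headers, which give Feature Extraction 10.7.1.1, while version 8.1 is named in the submitters' processing notes. Log2 values of the 8 arrays were deposited by the authors as well, with comparison tables with unadjusted p-values and a ratio per probe; their normalization is not stated in these sources. No probe sequence was used.

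Control and outlier-marked spots were left out, log2 signals were scaled to each array's 75th percentile and averaged per probe, and 4 probes without a value on every array were dropped. The 9121 probes marked well above background on each array of 1 or more of the 4 cultivars were tested in R 4.3.3 with limma 3.58.1 (4 cultivar means, 8 arrays, Benjamini-Hochberg, call under 0.05); the script was tested on simulated data. "At least N-fold" sets the bright cultivar's mean against, on each dim array, the probe's own signal or the array's lowest signal well above background, whichever is higher.

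Genes were grouped by 25 word patterns over the descriptions. Named genes are the brightest member of groups without a call, members of the groups, the 44 protein-named probes at least 2-fold apart and the largest unnamed ones; all but the first were chosen after their values were seen. Members, groups and lists were chosen with earlier results of these data known. Alternatives were normexp (offset 50, on median signals, since the files hold no mean signal), quantile, 2 other scalings, the deposited log2 values, 3 filters, 3 other fits and leaving out each array. Counts at an unadjusted p, counts of probes apart, the place of the Japanese apricot mean and 1 further fit were added after seeing the data.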

Additional observations from a re-analysis of the deposited data

How the results depend on the processing

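In all 19 alternative settings limma called 0 probes at an adjusted p under 0.05, with a smallest adjusted p of 0.0532 (moderation with trend) to 0.986 (without Manao replicate 2). The replicate numbers were not taken as pairs: the labels name no shared origin, and the correlations of the replicate differences between cultivars ran from -0.18 (Zhenkui with Xiyeqing) to 0.39 (Manao with Zhenkui), so same-numbered Manao and Zhenkui arrays deviated together while those of the other cultivars did so weakly or not. With a replicate block in the fit of 8 arrays 0 probes were called (smallest adjusted p 0.356). With the replicate block in the 4 apricot arrays alone, which leaves 1 residual degree of freedom and was added after seeing the data, 14 probes were called, 14 of them at least 2-fold, among them the 2 PEPCK probes AY962831.1 and AY962819.1 and pkMYB2 FJ860135.1 (adjusted p 0.0456 each), and 1179 higher and 1248 lower had an unadjusted p under 0.05. The arrays that moved counts by over 1.5 times were both Manao arrays and both Zhenkui arrays. Leaving out 1 array gave 180 to 600 probes higher and 113 to 615 lower at an unadjusted p under 0.05, and 304 to 561 higher and 95 to 280 lower at 2-fold or more with arrays apart; with 1 array left, apart asks for less and the lone array is assumed to vary like the others. Normexp moved the median of all probes from -0.03 to -0.17 and gave 267 higher and 799 lower at an unadjusted p under 0.05, 103 and 25 at 2-fold apart, 10 of the 44 protein-named probes at 2-fold apart moved by over 1.5 times, 27 calls between the Japanese apricot cultivars and 11 for the difference of differences. The 4 apricot arrays alone gave 825 lower at an unadjusted p under 0.05. At 2-fold apart the deposited log2 values gave 180 and 34, probes above background on all 4 apricot arrays gave 212 higher, and no filter gave 133 lower. The cause of these shifts was not tested.

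Group medians moved with the array left out: 0.34 to 0.88 for ethylene perception, -0.41 to 1.86 for expansins, -1.39 to 0.85 for polygalacturonase-inhibiting proteins, -0.59 to -0.038 for cyanogenic enzymes, -0.86 to -0.44 for MADS-box genes, 1.34 to 1.71 for organic acid enzymes, -1.58 to -0.53 for auxin, -0.036 to 1.08 for abscisic acid and dehydrins, -0.39 to -0.055 for heat shock, -0.15 to 0.036 for reference genes, -0.67 to -0.42 for photosynthesis, -1.03 to -0.72 for the ribosome and 0.61 to 1.38 for oxidative stress. By scaling, ethylene synthesis was 0.17 with normexp. Carotenoids were 0.21 with quantile normalization, 0.086 on the array median and 0.20 on deposited values. Heat shock was -0.060 with normexp, 0.13 with quantile, -0.061 and -0.17 on the other scalings and 0.13 on deposited values, and reference genes were 0.12 with quantile and 0.15 on deposited values. Among the brightest members of the groups, differences that turned sign were oleosin AY962832.1 (-0.32 with normexp, -0.11 deposited, down to -0.34 with 1 array left out, and up to 0.72), CV049998.1, a tag of partly ripe fruit (0.21 quantile, 0.18 deposited, -0.28 to 0.049 with 1 array left out), Y08211.1 (0.11 and 0.099) and EF640669.1 (0.064 and 0.060). With 1 array left out, FJ026006.1 ran from -0.15 to 0.94, AF297522.1 from -0.42 to 0.91, AJ890498.1 from -0.084 to 0.33, EF640709.1 from -0.64 to 0.13, DQ102369.1 up to 0.0088 and EF409977.1 from -1.66 to 0.39. Other probes cited above turned sign too. Examples are U50201.2 (-0.16 with normexp), FJ026009.1 (0.17 without Zhenkui replicate 2) and AF184080.1 (-0.22 without Zhenkui replicate 2). Signal over background limits the dim probes: of the 325 higher in Manao, 212 were above background on all 4 apricot arrays.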
